A study of Mus musculus with 12 samples.

Results

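The data were used to describe 39 protein-coding genes that lie on chromosome 9 of the mouse within 1.5 Mb of Kmt2a, the gene into which the study placed a loxP-stop-loxP (LSL) cassette. The members were named in a list together with the rule that they lie in this window and have more than 10 counts in total, and their positions were read from the GRCm38 annotation, in which Kmt2a occupies chr9:44803355-44881296 on the minus strand. All 39 lay in the window, at 0.3 to 957.3 kb from the gene, with 27 beyond its 3′ end and 12 beyond its 5′ end. The count table held 37 of them, since Upk2 (uroplakin of the bladder surface) and Il10ra (the interleukin-10 receptor) were not among its 18911 genes, and 36 passed the filter of more than 10 counts, since Cd3e had 6. These 36 stand beside 17076 genes tested in all, 60 tested genes of the whole window and 889 tested genes on the rest of chromosome 9.

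RNA was sequenced from hippocampal neural progenitor cells, cultured from newborn pups of 4 genotypes with 3 libraries each. Kmt2a+/+ cells had 2 wild-type alleles and Kmt2a+/LSL cells carried the cassette in intron 1 of 1 allele. The other two genotypes added a nestin-Cre transgene, which excises the cassette in cells of the nervous system: Nes-Cre+/- Kmt2a+/+, named the Cre control, and Nes-Cre+/- Kmt2a+/LSL, the Cre LSL cells. The LSL line was made by CRISPR in C57BL/6J zygotes and all strains were kept on C57BL/6J, so no sequence of another strain is described for this segment. The methods name 2 lines of this allele, of which 1 was studied further, and the sources used here do not say whether libraries with the same number came from the same litter.

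KMT2A is a histone methyltransferase that marks lysine 4 of histone 3 at promoters and enhancers, and loss of 1 allele causes Wiedemann-Steiner syndrome in humans. A stop cassette ends transcription of its own allele early. An insertion may also alter genes beside it, and the segment beside Kmt2a is gene dense, so its genes serve as a readout of such an effect. The neighbours share position and not function: they include ubiquitin enzymes, subunits of the T cell receptor, adhesion molecules, sodium channel subunits, and parts of the secretory pathway and the cilium.

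Kmt2a was measured first because it checks the labels. Its CPM (counts scaled to a library of 1000000, with TMM library sizes) were 289, 300 and 281 in Kmt2a+/+, and 166, 166 and 167 in Kmt2a+/LSL. They were 283, 310 and 299 in the Cre control and 273, 284 and 259 in the Cre LSL cells. The 3 Kmt2a+/LSL libraries lay below the other 9, with no overlap. The log2 fold change of Kmt2a+/LSL over Kmt2a+/+ was -0.80 (SE 0.125, 95% interval -1.08 to -0.53), which is a ratio of 0.573. In the edgeR quasi-likelihood fit of all 12 libraries its Benjamini-Hochberg adjusted p over all genes was 0.281, and over 25 alternative fits it lay between 6.09e-18 and 1, under 0.05 in 6 of them. It was 0.0437 in edgeR without Kmt2a+/+ replicate 1, the library described next. The exact permutation test of 3 against 3 libraries gave its smallest possible p, 0.1 (two-sided).

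Library totals lay between 18280008 and 28596919 counts. Kmt2a+/+ replicate 1 stood apart. Its median correlation with the other libraries of its genotype was 0.903, against 0.939 to 0.984 in the other 11 libraries, and it had the lowest total. The deviations of several libraries varied with GC content. Spearman's rho over 8158 genes was -0.811 in Kmt2a+/+ replicate 1, -0.68 in Cre LSL replicate 1, and between -0.102 and 0.848 in the other 10, with the opposite sign at 0.848 in Kmt2a+/+ replicate 3. Values without Kmt2a+/+ replicate 1 are given where it moved a result. The cells expressed all 11 progenitor markers checked (Nes 316 to 758 CPM, Sox2 226 to 387 CPM). They also expressed all 5 astrocyte markers, 7 of 8 neuron markers and 6 of 7 oligodendrocyte-lineage markers at a mean of 1 CPM or more. A mean of 1 CPM was reached by 2 of 7 endothelial and mural markers, by 1 of 4 ependymal markers, and by none of the 6 microglial and 8 T and B cell markers.

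The sequence at the start sites is shown for Kmt2a and 3 neighbours because adjacent genes here differed widely in level. Each window of 300 bases (RefSeq, GRCm38.p6) covers 250 bases before and 50 after the start, reads 5′ to 3′ on the strand of the gene and has each CG dinucleotide in capitals. The windows are chr9:44881240-44881539 for Kmt2a, chr9:44799198-44799497 for Tmem25 (the nearest member above 1 CPM on the 3′ side), chr9:44965551-44965850 for Ube4a (the nearest member on the 5′ side) and chr9:44980382-44980681 for Cd3g (the next member after Ube4a), all 4 on the minus strand.
Kmt2a: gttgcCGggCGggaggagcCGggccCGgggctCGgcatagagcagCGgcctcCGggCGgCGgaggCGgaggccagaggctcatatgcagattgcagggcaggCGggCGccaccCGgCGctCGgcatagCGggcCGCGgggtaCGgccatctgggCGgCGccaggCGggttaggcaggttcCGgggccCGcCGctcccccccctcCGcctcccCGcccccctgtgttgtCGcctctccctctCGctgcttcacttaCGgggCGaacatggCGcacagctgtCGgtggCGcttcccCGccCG
Tmem25: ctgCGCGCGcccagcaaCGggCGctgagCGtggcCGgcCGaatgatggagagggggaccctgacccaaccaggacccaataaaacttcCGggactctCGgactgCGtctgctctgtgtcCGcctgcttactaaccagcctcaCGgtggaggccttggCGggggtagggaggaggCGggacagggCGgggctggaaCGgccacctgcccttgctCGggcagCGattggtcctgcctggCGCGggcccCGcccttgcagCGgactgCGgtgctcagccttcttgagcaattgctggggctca
Ube4a: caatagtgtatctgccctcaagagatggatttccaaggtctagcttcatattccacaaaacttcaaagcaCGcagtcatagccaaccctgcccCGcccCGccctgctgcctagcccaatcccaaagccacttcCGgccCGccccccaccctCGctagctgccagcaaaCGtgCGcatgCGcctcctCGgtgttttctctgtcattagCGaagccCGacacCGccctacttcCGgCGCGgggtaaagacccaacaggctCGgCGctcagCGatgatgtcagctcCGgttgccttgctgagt
Cd3g: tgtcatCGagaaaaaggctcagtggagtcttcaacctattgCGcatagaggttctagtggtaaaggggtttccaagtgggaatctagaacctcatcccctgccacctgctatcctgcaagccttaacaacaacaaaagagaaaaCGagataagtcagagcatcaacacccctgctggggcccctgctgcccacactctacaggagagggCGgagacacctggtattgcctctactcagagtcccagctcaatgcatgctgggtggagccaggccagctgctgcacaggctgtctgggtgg

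These windows held 36 CG dinucleotides in Kmt2a, 24 in Tmem25, 20 in Ube4a and 4 in Cd3g. Over 32851 mouse promoter windows the median was 7, and 43.5% held 10 or more. A window was found for 20 of the 39 members, of which 13 held 10 or more. Among the 14 with a mean of at least 1 CPM, 12 did (median 17, range 5 to 43), and among the 6 below 1 CPM, 1 did (median 3.5). That 1 was Scn4b, with 26, and the other 5 held 1 to 8. No test was made of this description.

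Per kb of the longest transcript, the levels of the 37 genes spanned from 0.00801 CPM per kb in Cd3e to 58.8 CPM per kb in Arcn1. Kmt2a stood at 15.6 CPM per kb, and 9 neighbours stood above it. After Arcn1, which encodes the delta subunit of the COPI vesicle coat, came Phldb1 (37.2, a pleckstrin homology-like domain protein), Rnf26 (32.0, a ubiquitin ligase of the endoplasmic reticulum membrane), Hyou1 (27.4, a chaperone of the endoplasmic reticulum) and Ddx6 (25.0, an RNA helicase of processing bodies). Ube4a, a ubiquitin chain elongation factor, stood at 23.2, Bace1, the beta-secretase that cleaves the amyloid precursor protein, at 18.7, Thy1, a glycolipid-anchored surface protein, at 17.8 and Vps11, a subunit of the endosomal tethering complexes, at 16.1. In all, 28 neighbours had a mean of at least 1 CPM and 8 of the tested genes lay below it, where the libraries held few counts. Shared sequence makes some levels uncertain. Of the 31-base words in their transcripts, other genes also held 72.5% in Rnf26, 43.1% in Ttc36, 38.8% in Rps25, 32.1% in Mpzl2, 30.3% in Bace1 and 25.0% in Trappc4, and the strand of the reads is not given.

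**Figure D1:**
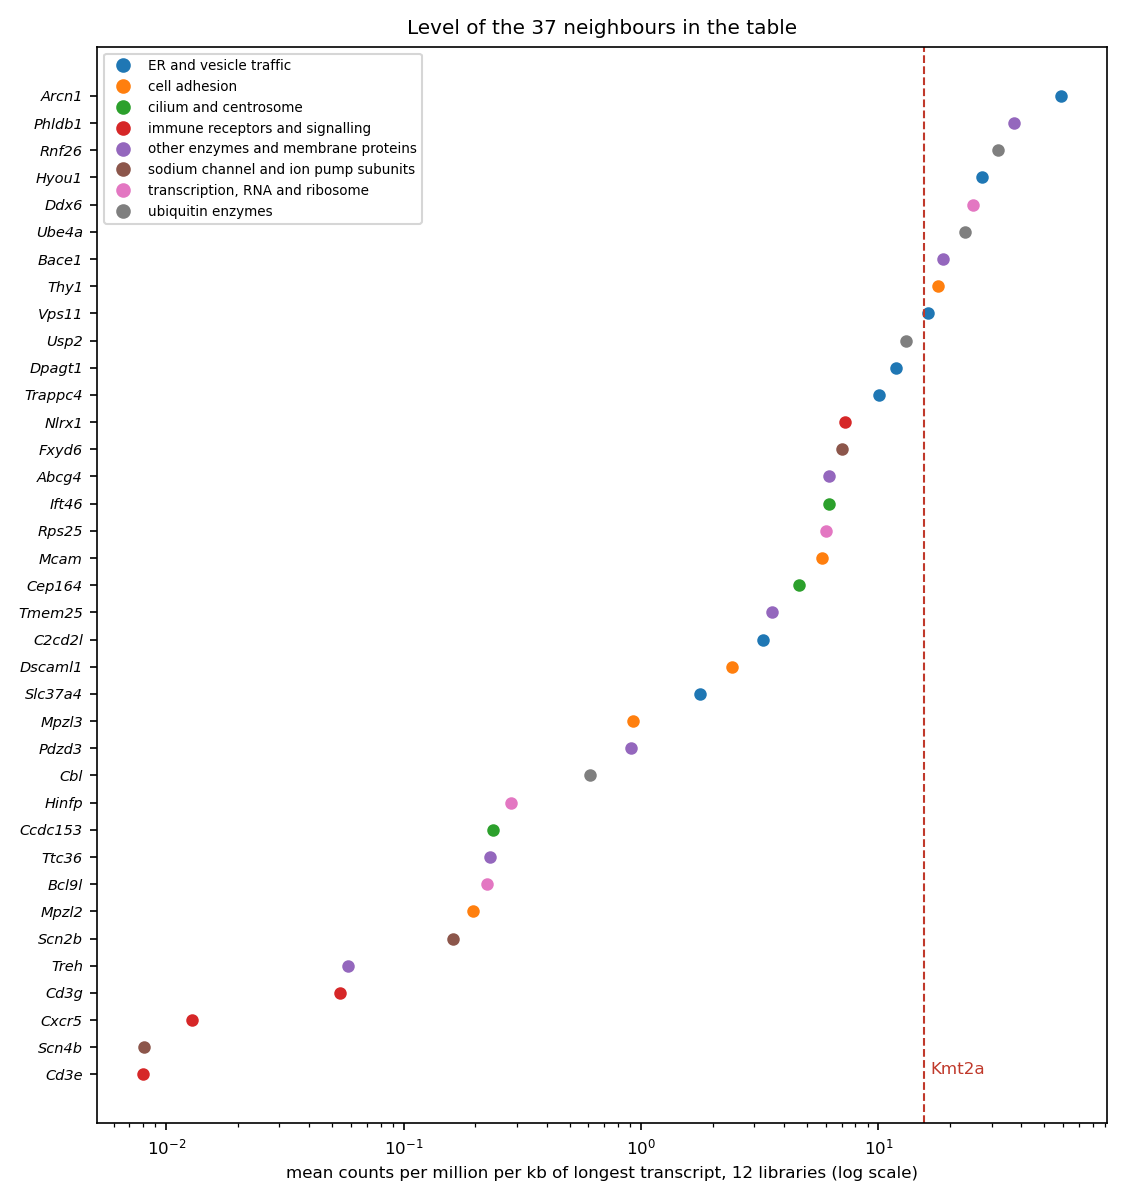
Level of the 37 neighbours of Kmt2a in the count table, as mean CPM per kb of the longest transcript over 12 libraries (x axis, log scale), 1 point per gene, coloured by role. The dashed line is Kmt2a at 15.6, and the 9 neighbours to its right are led by Arcn1 at 58.8.

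The comparisons ask whether genes beside the cassette differed where it was present. The cassette and the lower Kmt2a level coincided in the same 3 libraries, so an effect on the neighbours from either cannot be told apart. No neighbour passed an adjusted p of 0.05 in the edgeR test of Kmt2a+/LSL against Kmt2a+/+, where 0.0% of the 17076 genes were called. At an unadjusted p under 0.05, 0 of 36 neighbours were found, against 1.79% of all genes. When Kmt2a+/LSL was set against the mean of the other 3 genotypes, in which the cassette was absent or was targeted by Cre (how much of it remained was not measured here), the adjusted test again called 0 of 36 (1 gene of all, Grb10 on chromosome 11, or 0.00586%), and the unadjusted one 0 of 36 against 1.2% of all genes. The DESeq2 Wald test and limma-voom with quality weights also gave 0 called neighbours in both comparisons. At an unadjusted p under 0.05, DESeq2 gave none in either, and limma-voom gave 3 of 36 in the first comparison (Thy1, Dscaml1 and Abcg4), against 7.68% of all genes. In the second it gave 6 of 36 (Mpzl3, Thy1, Dscaml1, Slc37a4, C2cd2l and Pdzd3), against 5.67% of all genes.

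The neighbours' median log2 fold change of Kmt2a+/LSL over Kmt2a+/+ was 0.14, with 23 of 36 above 0, beside a median of 0.00 over all genes tested, and without Kmt2a+/+ replicate 1 it was -0.05, with 17 of 36 above 0. Against the mean of the other 3 genotypes it was 0.02, with 20 of 36 above 0, and the same median of 0.02 was found without that library. The sign of the shift against wild type thus turned with 1 library. By distance, the 7 tested neighbours within 0.1 Mb had a median of -0.01 against wild type, the 17 at 0.1 to 0.5 Mb 0.14, and the 12 farther away 0.19. Without Kmt2a+/+ replicate 1 these medians were -0.31, -0.01 and -0.05. The 7 nearest include Ttc36 and Cd3g, which had 60 and 35 counts in all and estimates below 0 in that fit. Of the rest, Tmem25 and Phldb1 were below 0 there, and Ift46, Arcn1 and Ube4a were above 0. The median of the nearest genes thus rests in part on genes with few counts.

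The precision of these estimates differed widely between genes. Of the 28 neighbours at 1 CPM or more, 9 had a 95% interval within a 2-fold change in either direction against wild type, and 15 had a lower bound above the value of Kmt2a, -0.80. Without Kmt2a+/+ replicate 1 these numbers were 20 and 19. Against the mean of the other 3 genotypes, the lower bound lay above the value of Kmt2a, -0.78, in 18 of 28, and in 23 of 28 without that library. The estimates themselves were as low as that of Kmt2a for 2 genes in this comparison, Thy1 (-0.85) and Dscaml1 (-0.96), each with an interval that included 0. Without Kmt2a+/+ replicate 1 they were again these 2, at -1.0 (-1.73 to -0.27) in Thy1 and -1.11 (-2.24 to 0.02) in Dscaml1. Against wild type they were 2 as well (Dscaml1 and Hinfp), and without that library 4 (Thy1, Dscaml1, Bcl9l and Hinfp). The size of change that could be resolved differed by gene. Against the mean of the other 3 genotypes, the half-width of the interval ran from 0.3 (Usp2) to 2.1 (Bcl9l), with a median of 0.7. A change smaller than the half-width of its gene was not detectable at this precision.

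**Figure D2:**
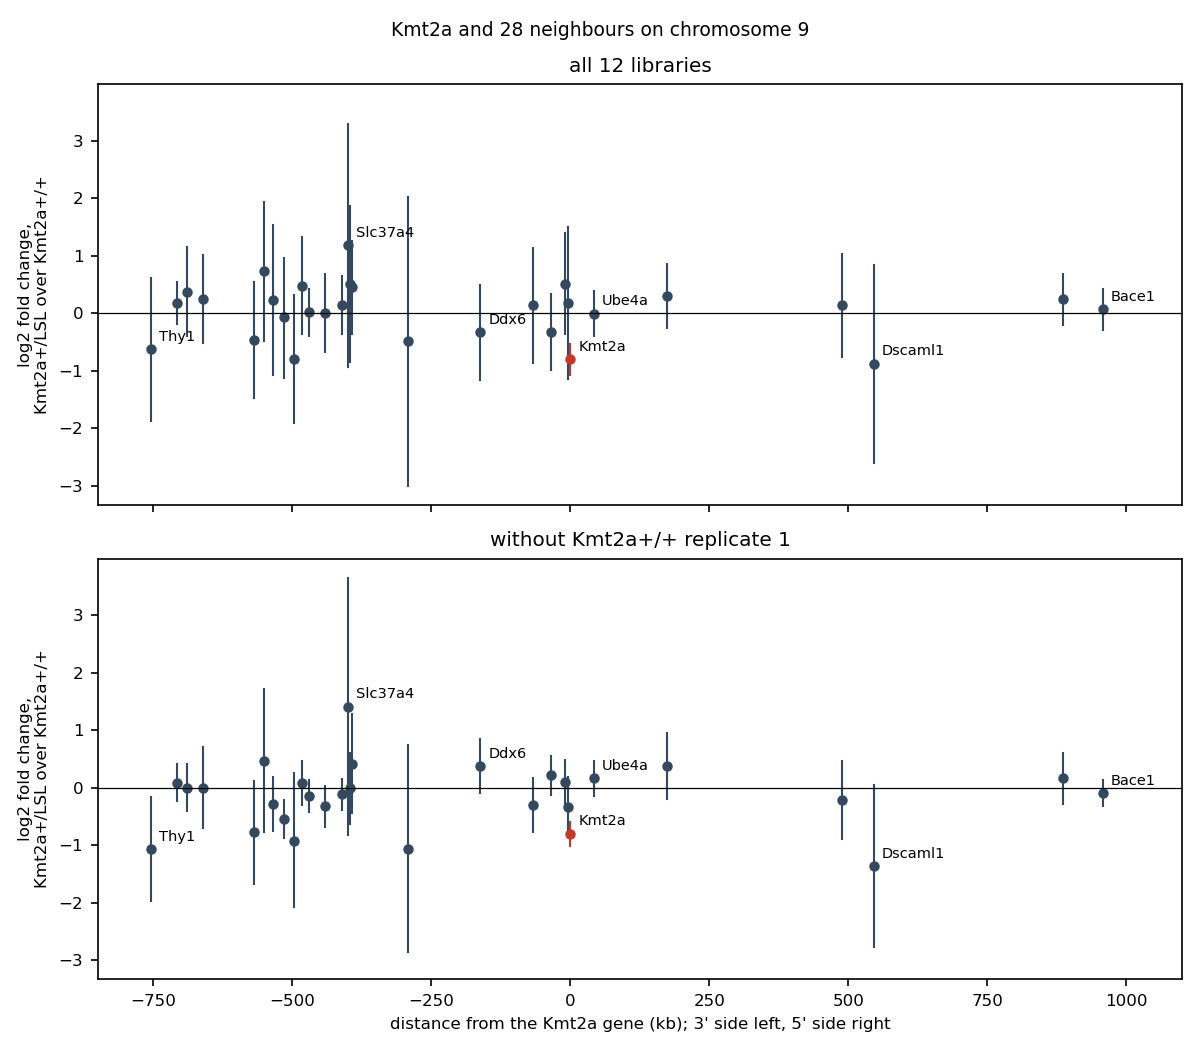
Log2 fold change of Kmt2a+/LSL over Kmt2a+/+ (y axis, point with its 95% interval from edgeR) against distance from the Kmt2a gene in kb (x axis), for Kmt2a in red and its 28 neighbours at 1 CPM or more, with all 12 libraries (top) and without Kmt2a+/+ replicate 1 (bottom). Kmt2a lies at -0.80 in both, the neighbours scatter around 0, and the intervals are narrower in the lower panel.

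On the 3′ side, Ttc36 began 0.3 kb beyond the end of Kmt2a. This gene for a tetratricopeptide repeat protein had 60 counts over the 12 libraries. It had 0.00, 0.398 and 0.172 CPM in Kmt2a+/+, 0.262, 0.0406 and 0.0862 CPM in Kmt2a+/LSL, 0.122, 0.428 and 0.278 CPM in the Cre control, and 0.149, 0.0375 and 0.502 CPM in the Cre LSL cells. The groups overlapped, and a change could not be resolved at this depth (log2 fold change -0.57, 95% interval -3.11 to 1.97, and -1.07, -3.36 to 1.22, without Kmt2a+/+ replicate 1).

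Tmem25, which encodes a transmembrane protein of the immunoglobulin superfamily and lies 4.0 kb from Kmt2a, had 1.13, 14.9 and 10.4 CPM in Kmt2a+/+ and 7.98, 11.0 and 11.1 CPM in Kmt2a+/LSL. It had 9.92, 12.0 and 14.1 CPM in the Cre control and 9.76, 10.8 and 7.57 CPM in the Cre LSL cells. The groups overlapped, and the low value was that of Kmt2a+/+ replicate 1. The fold change of Kmt2a+/LSL over Kmt2a+/+ was 0.18 (-1.14 to 1.5), and without that library -0.33 (-0.86 to 0.19).

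Ift46, a subunit of the intraflagellar transport complex that builds cilia, lies 9.9 kb away. It had 6.48, 26.9 and 24.8 CPM in Kmt2a+/+ and 25.1, 28.9 and 29.1 CPM in Kmt2a+/LSL, beside 21, 32.0 and 27.2 CPM and 25.6, 30.7 and 31.9 CPM in the 2 genotypes with Cre. The groups overlapped apart from the same low library. The fold change was 0.51 (-0.37 to 1.39), and 0.10 (-0.28 to 0.48) without it.

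Arcn1 starts 63 bp from the annotated start of Ift46, on the opposite strand. It had 465, 205 and 188 CPM in Kmt2a+/+ and 238, 244 and 204 CPM in Kmt2a+/LSL. In the genotypes with Cre it had 234, 219 and 208 CPM, and 267, 202 and 199 CPM. Here Kmt2a+/+ replicate 1 was the highest of 12, while Ift46 was lowest in it. The fold change was -0.32 (-0.98 to 0.33), and 0.22 (-0.12 to 0.56) without that library. Phldb1, 68.2 kb away, had 53.2, 234 and 285 CPM in Kmt2a+/+, 195, 207 and 229 CPM in Kmt2a+/LSL, 232, 221 and 260 CPM in the Cre control, and 130, 247 and 204 CPM in the Cre LSL cells. Its lowest values were those of Kmt2a+/+ replicate 1 and Cre LSL replicate 1. The fold change was 0.14 (-0.86 to 1.14), and -0.31 (-0.77 to 0.16) without Kmt2a+/+ replicate 1.

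On the 5′ side, Ube4a is the nearest member, 41.8 kb from Kmt2a. It had 173, 136 and 115 CPM in Kmt2a+/+, 140, 144 and 136 CPM in Kmt2a+/LSL, 133, 139 and 141 CPM in the Cre control, and 169, 130 and 127 CPM in the Cre LSL cells. The Kmt2a+/LSL libraries lay within the range of wild type, but 2 of them, at 140 and 144 CPM, did so through Kmt2a+/+ replicate 1 alone. This was one of the more precise estimates, at -0.01 (-0.40 to 0.38) against wild type and 0.00 (-0.32 to 0.32) against the mean of the other 3 genotypes. Without Kmt2a+/+ replicate 1 these were 0.16 (-0.15 to 0.47) and 0.06 (-0.17 to 0.29), and all 4 lower bounds lie above the change of Kmt2a.

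**Figure D3:**
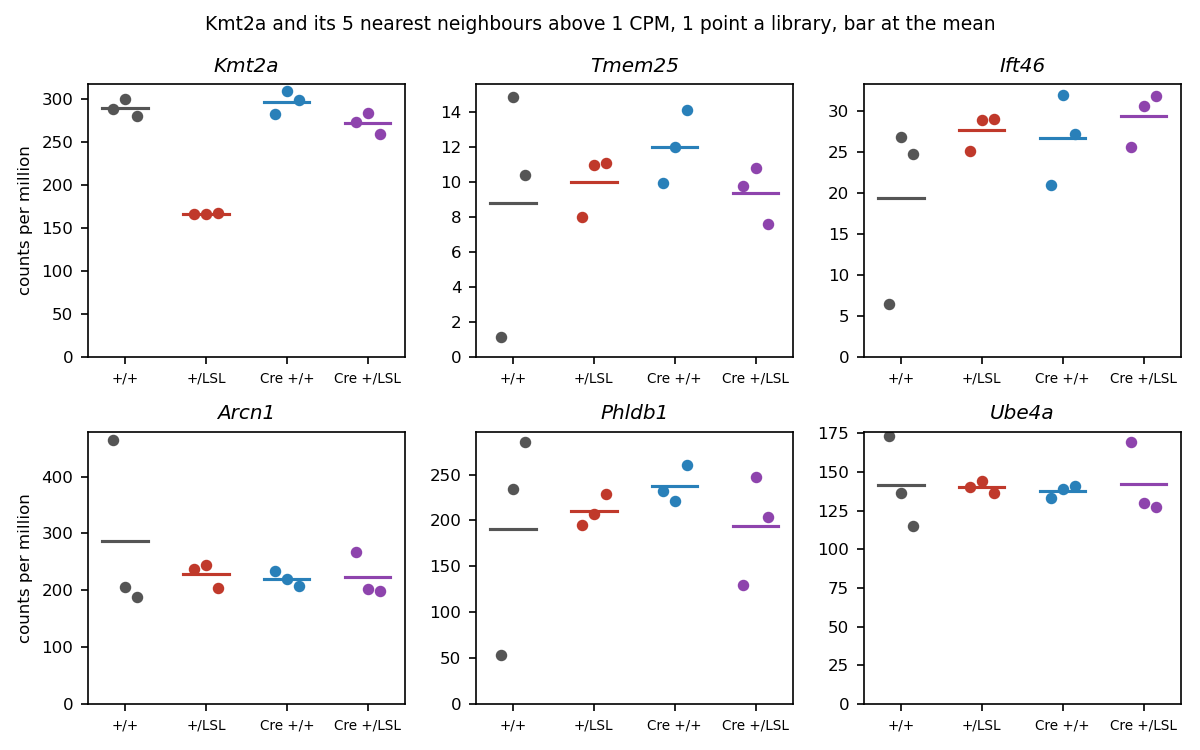
CPM (y axis) of Kmt2a and its 5 nearest neighbours above 1 CPM in each library of the 4 genotypes (x axis, Cre +/+ for the Cre control and Cre +/LSL for the Cre LSL cells), with 1 point per library in the order of replicates 1 to 3 and a bar at the mean. Kmt2a sits at 166 to 167 in the 3 Kmt2a+/LSL libraries and at 259 or more in the others, while each neighbour's Kmt2a+/LSL libraries lie within or beside the range of the rest.

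Beyond Ube4a come Cd3g and Cd3e, subunits of the T cell receptor complex. Cd3e had 6 counts in all, 1 in Kmt2a+/+, 2 in Kmt2a+/LSL, 0 in the Cre control and 3 in the Cre LSL cells, and was not tested. Cd3g had 11, 3 and 3 counts in the Kmt2a+/+ libraries, 2, 3 and 0 in those of Kmt2a+/LSL, 0, 1 and 0 in the Cre control, and 3, 3 and 6 in the Cre LSL cells. Its libraries did not overlap between the Cre LSL cells and the Cre control, nor between the Cre control and Kmt2a+/+. By summed counts (12 against 1, and 1 against 17) the ratios were 12.8 (95% interval 1.89 to 546) and 0.0572 (0.00137 to 0.365), and these intervals cover counting error only. Without Kmt2a+/+ replicate 1 the 17 counts are 6.

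Cd3g was the neighbour with an unadjusted edgeR p under 0.05 in these 2 comparisons when all 12 libraries were fitted. In the Cre LSL cells against the Cre control the test gave 1 of 36 neighbours against 1.11% of all genes, and in the Cre control against Kmt2a+/+ 1 of 36 against 1.4%. None passed the adjusted test in either, where 0.0% and 0.0% of all genes were called. In the first comparison Cd3g no longer had such a p without Cre control replicate 1 or 3 or Cre LSL replicate 3. In the second it no longer had one without Kmt2a+/+ replicate 1, where Nlrx1 and Abcg4 did (2 of 36, against 6.09% of all genes). Other fits gave more neighbours. Over 24 alternatives the count ranged from 0 to 4 in the first comparison, the highest with DESeq2 without Kmt2a+/+ replicate 1. For the second it ranged from 0 to 3, the highest without Kmt2a+/+ replicate 3. The difference in allele effect of Cd3g with minus without Cre also had an unadjusted p under 0.05 (1 of 36, against 1.73% of all genes, with 0.0% called after adjustment). For this difference the count of neighbours ranged from 0 to 4 over 23 alternatives, the highest without Kmt2a+/+ replicate 3. The 8 T and B cell markers summed to 1.31 to 3.51 CPM in Kmt2a+/+, 1.76 to 2.19 CPM in Kmt2a+/LSL, 1.95 to 2.99 CPM in the Cre control and 2.47 to 3.42 CPM in the Cre LSL cells, and their part in the Cd3g counts was not tested. In bulk samples such as these, fewer cells of a type and less RNA per cell cannot be told apart.

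Mpzl2 and Mpzl3, 158.5 and 173.9 kb away, encode adhesion proteins related to myelin protein zero. Mpzl2 stayed low, with 0.833, 0.795 and 0.240 CPM in Kmt2a+/+, 0.337, 0.731 and 0.603 CPM in Kmt2a+/LSL with 0.732, 0.684 and 1.23 CPM in the Cre control and 1.05, 0.487 and 0.684 CPM in the Cre LSL cells, and the groups overlapped. Mpzl3 had 3.51, 3.02 and 2.99 CPM in Kmt2a+/+ and 4.31, 3.53 and 3.88 CPM in Kmt2a+/LSL. It had 3.54, 2.82 and 2.78 CPM in the Cre control and 4.33, 2.96 and 3.05 CPM in the Cre LSL cells. The Kmt2a+/LSL libraries of Mpzl3 lay just above those of wild type, but within the range of the genotypes with Cre, and the fold change was 0.30 (-0.26 to 0.86).

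Among the other neighbours, the sodium channel and ion pump subunits included 2 genes below 1 CPM. Scn4b, a beta subunit of voltage-gated sodium channels, had 12 counts in all. These were 1, 0 and 4 in Kmt2a+/+ and 0, 2 and 5 in the Cre control, with 0 in each of the 6 libraries that carried the LSL allele. The carriers overlapped the noncarriers, which included 2 libraries at 0. Scn4b passed the filter on low counts through noncarriers alone, so no difference is read from its test. For carriers against noncarriers edgeR called no neighbour after adjustment, where 0.0% of all genes were called. At an unadjusted p under 0.05 it gave Scn4b (1 of 36, against 1.42% of all genes), and without Kmt2a+/+ replicate 3 it gave none (2.92% of all genes). Over 23 alternatives this count ranged from 0 to 5, and from 0 to 4 with 1 library left out. The highest came without both Kmt2a+/+ replicate 1 and Cre LSL replicate 1. In place of Scn4b DESeq2 gave Hinfp (1 of 36, against 1.44%) and limma-voom gave Abcg4 (1 of 36, against 7.23%). Scn2b, a beta subunit of the same channels, had 0.297 to 1.49 CPM, and Fxyd6, a regulator of the sodium pump, had 7.20 to 27.6 CPM, a range found within Kmt2a+/+.

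The 4 ubiquitin enzymes had estimates between -0.37 and 0.18 for Kmt2a+/LSL against the mean of the other 3 genotypes. Besides Ube4a, they were Usp2, a deubiquitinase (0.15, -0.15 to 0.44), Rnf26 (0.18, -0.45 to 0.81) and Cbl, which ubiquitinates activated receptor kinases (-0.37, -1.21 to 0.47). In the secretory pathway, Hyou1 (0.10, -0.31 to 0.50) and Dpagt1, the enzyme that starts N-glycan synthesis (-0.03, -0.37 to 0.30), were estimated closely. Trappc4, a subunit of a vesicle tethering complex (0.33, -0.75 to 1.42), was not. Trappc4 and Rps25, a protein of the small ribosomal subunit, overlap by 462 bp on opposite strands, and without a stated strand their reads may not be separated where they overlap. The 2 most distant members, Cep164 of the distal appendages of the centriole (0.11, -0.25 to 0.47) and Bace1 (0.06, -0.24 to 0.36), lie 885.6 and 957.3 kb away, and neither estimate stood outside the spread of the libraries. Without Kmt2a+/+ replicate 1, the estimates of these 8 genes besides Ube4a lay between -0.47 (Cbl) and 0.17 (Trappc4).

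Read library by library, 4 of 36 neighbours (11.1%) did not overlap between Kmt2a+/LSL and Kmt2a+/+, against 4.05% of all genes tested. Mpzl3, Slc37a4 and Rps25 were higher, and Hinfp, a transcription factor of histone H4 genes, was lower. This count and its direction depend on Kmt2a+/+ replicate 1. Without that library Thy1, Abcg4, Phldb1, Vps11, Hyou1 and Bcl9l also lay apart and lower, and Ddx6 apart and higher. The share of all genes was not computed for that case. Between the Cre LSL cells and Kmt2a+/LSL 5 of 36 did not overlap, against 7.1% (Dpagt1 higher, and Mcam, Slc37a4, C2cd2l and Pdzd3 lower). The 2 comparisons share the Kmt2a+/LSL libraries. Between the genotypes with Cre 3 did not overlap (Cbl, Cd3g and Dpagt1, all higher with the LSL allele), against 6.68%, and between the genotypes without the LSL allele 2 did not (Cd3g lower and Rps25 higher with Cre), against 4.35%. In the Cre LSL cells against Kmt2a+/LSL edgeR called 0 neighbours after adjustment (0.0% of all genes) and found 0 at an unadjusted p under 0.05 (1.61% of all genes). At that threshold DESeq2 gave Thy1 (1 of 36, against 1.54%), and limma-voom gave Thy1 and Slc37a4 (2 of 36, against 4.03%). The edgeR estimate of Thy1 in this comparison was 1.14 (-0.11 to 2.39), and 1.14 (0.30 to 1.97) without Kmt2a+/+ replicate 1.

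Slc37a4 was the only neighbour whose Kmt2a+/LSL libraries lay apart from all other 9, against 0.363% of all genes. It encodes the glucose-6-phosphate translocase of the endoplasmic reticulum, lies 400.4 kb from Kmt2a on the 3′ side, and was singled out after its values were seen, as were Thy1 and Abcg4. It had 4.04, 2.78 and 2.51 CPM in Kmt2a+/+ and 6.18, 8.41 and 6.55 CPM in Kmt2a+/LSL. In the Cre control it had 3.09, 4.49 and 1.35 CPM, and in the Cre LSL cells 5.18, 5.28 and 0.00 CPM, where the 0 stands beside 104 and 141 counts in the other 2 libraries of that genotype. The mean was 7.05 ± 1.19 CPM in Kmt2a+/LSL and 3.11 ± 0.820 CPM in Kmt2a+/+ (SD, n = 3). The fold change against the mean of the other 3 genotypes was 1.15 on the log2 scale (SE 0.734, -0.46 to 2.76) and 1.23 (-0.29 to 2.74) without Kmt2a+/+ replicate 1. Without Cre LSL replicate 3, the library with 0 counts, it was 0.95. There Slc37a4 was the 1 of 35 neighbours with an unadjusted p under 0.05, both in this comparison (1.15% of all genes) and against wild type (1.71%). It was also the 1 of 33 against wild type when only those 2 genotypes were fitted (0.769%). With all libraries it had an edgeR adjusted p of 0.9999, and the adjusted p lay between 0.702 and 1 over 22 alternatives.

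Thy1 and Abcg4 lie farther out on the 3′ side, 754.8 and 514.7 kb from Kmt2a. Thy1 had 8.09, 47.7 and 32.6 CPM in Kmt2a+/+ and 11.4, 18.4 and 27.6 CPM in Kmt2a+/LSL, beside 26.8, 33.1 and 39.2 CPM in the Cre control and 25.8, 69.4 and 31.2 CPM in the Cre LSL cells. Kmt2a+/+ replicate 1 was the lowest of all. The fold change of Kmt2a+/LSL over Kmt2a+/+ was -0.63 (-1.87 to 0.61) with all libraries. Without that library it was -1.07 (-1.98 to -0.16), with an edgeR adjusted p of 0.551, and over 25 alternatives the adjusted p lay between 0.266 and 1.

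Abcg4, a transporter that exports sterols, had 5.71, 34.6 and 34.9 CPM in Kmt2a+/+ and 21.3, 24.2 and 26.0 CPM in Kmt2a+/LSL, and 20.8 to 28.8 CPM in the 6 libraries with Cre. Its fold change over Kmt2a+/+ was -0.07 (-1.12 to 0.97) with all libraries, and -0.54 (-0.88 to -0.21) without Kmt2a+/+ replicate 1. The adjusted p was 0.551 in that fit and lay between 0.129 and 1 over 25 alternatives. In that fit 2 of 36 neighbours, Thy1 and Abcg4, had an unadjusted p under 0.05 against wild type, where 8.95% of all genes did, and 1 of 36, Thy1, had one against the mean of the other 3 genotypes, where 2.87% did. These shares are near or below the background. The Kmt2a+/LSL libraries of Abcg4 lay among those with Cre, and its difference rests on the 2 other wild-type libraries.

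**Figure D4:**
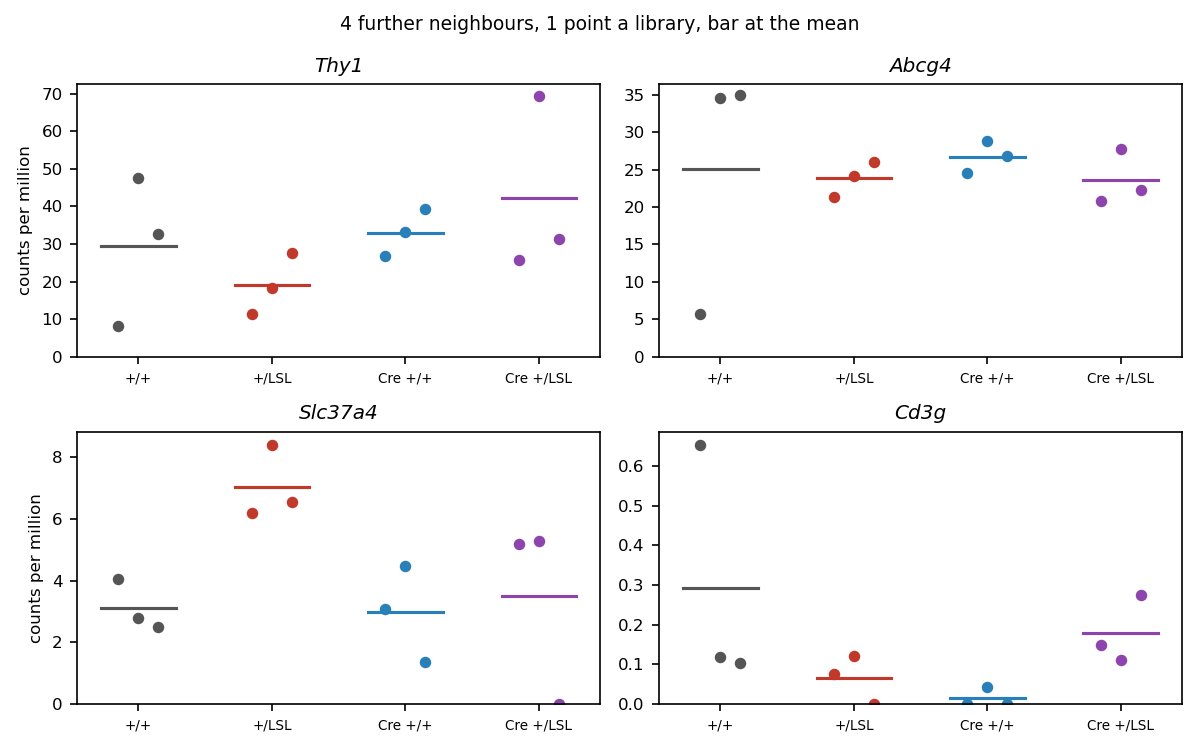
CPM (y axis) of Thy1, Abcg4, Slc37a4 and Cd3g in each library of the 4 genotypes (x axis, Cre +/+ for the Cre control and Cre +/LSL for the Cre LSL cells), with 1 point per library in the order of replicates 1 to 3 and a bar at the mean. The 3 Kmt2a+/LSL libraries of Slc37a4 lie at 6.18 to 8.41, above the other 9. Kmt2a+/+ replicate 1 is the lowest library for Thy1 and Abcg4 and the highest for Cd3g.

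The neighbours made the difference of Kmt2a+/+ replicate 1 visible gene by gene. It was the lowest of the 12 libraries for 18 of the 28 neighbours at 1 CPM or more and the highest for 3 (Arcn1, Ddx6 and Ube4a). Relative to the mean of the other 2 wild-type libraries, its log2 CPM differed by a median of -1.08 over these genes, from -3.40 in Trappc4 to 1.55 in Ddx6 among the 27 genes with counts in it. Bcl9l, a coactivator of beta-catenin, had 0 counts in that library, so the size of its difference is set by the prior count. The difference varied with GC content of the longest transcript, which ran from 43.4 to 60.1%. The median was -0.56 in the 14 genes of lower GC content and -2.05 in the 14 of higher (Pearson's r -0.67 and Spearman's rho -0.629 over 28 genes, and -0.631 and -0.586 over the 27 without Bcl9l, given as a description, since genes of 1 library share its depth). Kmt2a itself, with 50.6% GC, differed by -0.01. The part of GC content in the results was not tested beyond a fit with a GC offset, in which 0 of 36 neighbours were called and the median against wild type was 0.05.

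**Figure D5:**
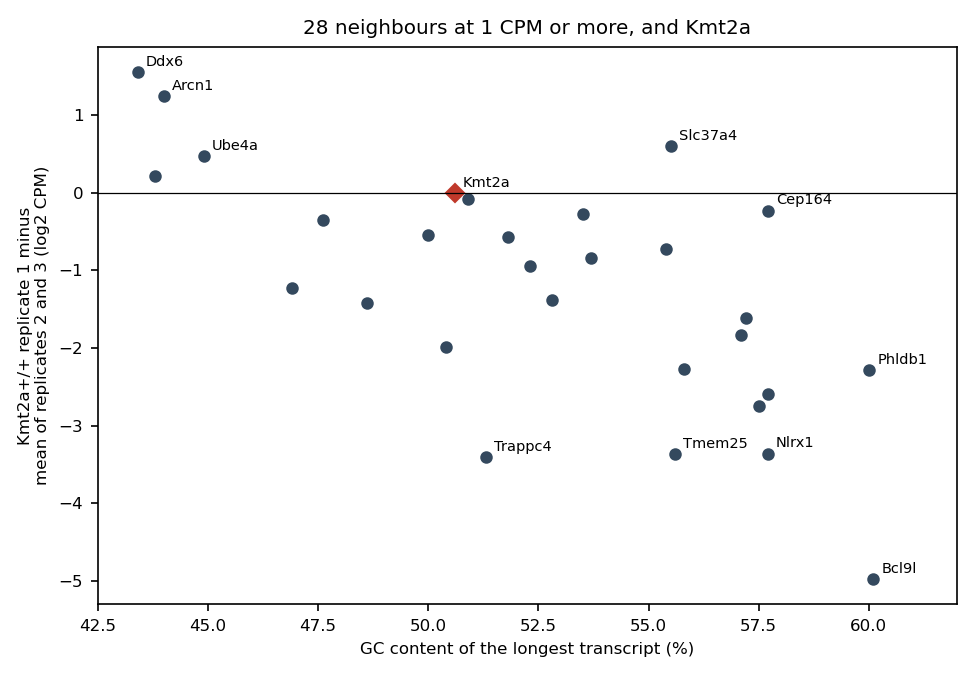
Log2 CPM of Kmt2a+/+ replicate 1 minus the mean of replicates 2 and 3 (y axis) against the GC content of the longest transcript in percent (x axis), for 28 neighbours at 1 CPM or more and for Kmt2a (red diamond). Ddx6, at the lowest GC content, and Arcn1 lie above 0, and Phldb1 lies at -2.28. The lowest point is Bcl9l, which had 0 counts in replicate 1, so that its height is set by the prior count.

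Of the other genes of the window, 24 were tested. None had an unadjusted edgeR p under 0.05 for Kmt2a+/LSL against the mean of the other 3 genotypes. Those with the smallest p were Apoa1 (log2 fold change -2.54, 1347.3 kb from Kmt2a), Fxyd2 (-0.66, 518.4 kb) and Cd3d (-0.55, 100.5 kb). All 3 lie on the 5′ side, had a mean below 1 CPM and an edgeR adjusted p of 0.9999.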

How the data were processed

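RNA from 12 cultures (4 genotypes, 3 libraries each) was sequenced as poly(A)-selected RNA. The authors pseudoaligned reads with kallisto 0.48.0 to the mm10 transcriptome, imported transcript estimates and analysed them with DESeq2 1.42.0. The deposited table holds the authors' estimated counts by gene, as whole numbers without normalization, and its 12 columns were used unchanged. Genotypes were taken from the labels of the samples.

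With R 4.3.3, genes whose counts summed to over 10 and were above 0 in 2 or more libraries were scaled by TMM and tested with edgeR 4.0.16 (quasi-likelihood, genotype as the only term, all 12 libraries in 1 fit), with adjustment over 17076 genes. Intervals are 95% and unadjusted. Alternatives used limma 3.58.1 (voom), DESeq2 1.42.0, other filters, other libraries in the fit, a replicate block, and each library left out. A GC offset, the GC offset with the block, and 2 fits without libraries that stand apart were added after seeing the data. The fits were tested on simulated data.

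The members, their roles and the lists were chosen with earlier results of these data known. Kmt2a, the 5 nearest members on each side, and members with an unadjusted p under 0.05 in any of 7 comparisons were to be printed by library, and of the other genes of the window the 3 with the smallest p were to be named. Nothing in the labels states that cultures are independent beyond their numbers, so p-values measure the spread between these libraries. The numbers were not taken as pairs because the sources do not state any pairing. Same-numbered libraries deviated with a mean correlation of 0.0844 (-0.0717 to 0.416, 18 pairs). For libraries with different numbers the mean was -0.0407 (-0.363 to 0.288, 36 pairs).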

Additional observations from a re-analysis of the deposited data

Results flagged for a closer look

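Of the 36 tested neighbours, Cd3g was marked because the effect of the LSL allele differed between the genotypes with and without Cre at an unadjusted p under 0.05. The difference was 5.25 on the log2 scale, and the edgeR adjusted p was 0.9999. The fit rests on 35 counts in 12 libraries, 11 of them in Kmt2a+/+ replicate 1 and 1 in the 3 Nes-Cre+/- Kmt2a+/+ libraries. Over 22 alternatives the difference lay between 3.32 and 7.12, with adjusted p between 0.431 and 1.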

How the results depend on the processing

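The number of neighbours with an adjusted p under 0.05 was 0 in each of the 7 comparisons and stayed 0 in all 167 values from 25 alternatives, each library left out in turn included, with a smallest adjusted p of 0.129. Few genes of any kind were called in the edgeR fit of all 12 libraries. They were 1 of 17076 (0.00586%) for Kmt2a+/LSL against the mean of the other 3 genotypes, and 0.0% in the other comparisons. The replicate block gave 0 called neighbours in each comparison at an adjusted p under 0.05. Kmt2a itself was not called in that edgeR fit either (adjusted p 0.8515 against Kmt2a+/+, and 0.2824 against the mean of the other 3 genotypes). At an unadjusted p under 0.05 the block added Thy1 in 2 comparisons (the Cre LSL cells against Kmt2a+/LSL, 1 of 36 beside 1.55% of all genes, and Kmt2a+/LSL against the mean of the other 3 genotypes, 1 of 36 beside 1.1%) and Hinfp for carriers against noncarriers (2 of 36 with Scn4b, beside 1.29%). In the Cre LSL cells against Kmt2a+/LSL the count at that threshold was 0, and it was 1 or 2 in 11 of 25 alternatives. In the check of the deviations from the genotype means, 8 of 12 libraries correlated best with libraries of their own number, a hint from the data and not from the design. At an unadjusted p under 0.05, the count against Kmt2a+/+ was 0 and ranged from 0 to 6 over the alternatives (0 to 4 with 1 library left out), the highest without both Kmt2a+/+ replicate 1 and Cre LSL replicate 1 (Thy1, Dscaml1, Vps11, Bcl9l, Phldb1 and Abcg4), where 14.6% of all genes had such a p. The 4 came without Kmt2a+/+ replicate 3 (Rnf26, Mcam, C2cd2l and Pdzd3, against 6.08% of all genes). For Kmt2a+/LSL against the mean of the other 3 genotypes it ranged from 0 to 6 (0 to 1 with 1 library left out), the highest with limma-voom, where 5.67% of all genes had such a p. The median log2 fold change against Kmt2a+/+, 0.14, ranged from -0.06 to 0.26 and was -0.05 without Kmt2a+/+ replicate 1 and 0.26 without replicate 3. Requiring 10 or more counts in each library left 26 neighbours. Estimates of the 8 tested neighbours below 1 CPM rest on few counts. Causes of these shifts were not tested.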
